A study of Mus musculus with 24 samples.

Results

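The tet-YAP livers of this study gave 6 of its 24 ChIP-seq libraries, 1 for each of YAP, TEAD, Myc, RNA polymerase II, H3K4me3 and H3K27ac. All 6 were chosen by genotype and antibody as the sample titles give them, and their lists hold 138019 peaks or regions, of which 1328 are YAP peaks, 32486 TEAD peaks and 13227 Myc peaks. Every library came from liver of R26-rtTA;tet-YAP mice in which the transgene had been switched on for 2 days. Per the paper, doxycycline was given in the food, and the transgene, placed at Col1A1, encodes a mutant YAP that is described as activated. The rtTA transactivator is expressed from the Rosa26 locus, which is active in most cell types, so the genotype does not limit the transgene to hepatocytes. The TEAD antibody is labelled without a family member, and liver markers were not checked, as no gene annotation of the files' genome build was used. The genotype holds no Myc transgene, so the Myc list is that of the mouse's own protein. Chromatin for the YAP library was fixed with the protein crosslinker DSG and then formaldehyde, and chromatin for the other 5 with formaldehyde alone. The question was which chromatin of the same livers YAP, TEAD and Myc occupied, and what sets apart the few TEAD peaks that carried YAP from those that did not.

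YAP is a transcriptional coactivator of the Hippo pathway, whose kinases hold it out of the nucleus. It has no DNA-binding domain and reaches chromatin mainly through the TEAD transcription factors, which bind short sequence motifs at promoters and, more often, at enhancers. In liver, active YAP drives growth of the organ and proliferation of hepatocytes. Myc binds E-box sequences as a dimer with Max, mostly in chromatin that is already active. H3K4me3 marks promoters, and H3K27ac marks active promoters and active enhancers, so a site in H3K27ac without H3K4me3 is enhancer-like by these marks.

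The YAP library held 25.2 M filtered tags, TEAD 32.4 M, Myc 26.1 M and RNA polymerase II 37.7 M, each with a control of nearly equal size. H3K4me3 regions numbered 16014 and covered 73.2 Mb, and H3K27ac regions numbered 20347 and covered 231 Mb. The sources used here state no depth for these broad lists. The YAP list stood apart in shape. The fragment size estimated by the peak caller was 56 bp, close to the tag length of 51 bp, against 294 bp for TEAD and 327 bp for Myc. The median peak width was 98 bp, against 521 and 530 bp. How far the number, width, splitting and summits of the YAP peaks depend on this estimate was not tested. A site without a YAP peak is one where YAP did not pass the authors' threshold in this library. With 1 library per antibody no test was possible, and shares are given with Wilson 95% intervals that cover the counting of peaks only. Neighbouring peaks are not independent, and variation between animals is not measured.

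Each peak was placed in 1 of 4 classes by whether it shared at least 1 bp with an H3K4me3 region, an H3K27ac region, both or neither. Myc lay most often where both marks were present: 74.6% (73.9 to 75.4) of its peaks lay in both marks, 22.4% (21.7 to 23.2) in H3K27ac only and 2.46% (2.21 to 2.74) in neither. TEAD was spread more evenly, with 46.4% (45.9 to 46.9) in both marks, 37.7% (37.2 to 38.2) in H3K27ac only and 14.8% (14.4 to 15.2) in neither. YAP resembled TEAD rather than Myc, with 39.7% (37.1 to 42.3) in both marks, 37.1% (34.6 to 39.8) in H3K27ac only and 22.1% (19.99 to 24.5) in neither. H3K4me3 without H3K27ac was rare for all 3 factors and held 14 YAP, 358 TEAD and 62 Myc peaks. These shares depend on how many regions count as marked. With only the regions scored at or above the median of each mark, the share in neither mark was 41.4% for YAP, 33.2% for TEAD and 10.8% for Myc, and the order of the factors was kept.

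RNA polymerase II followed the marks closely at TEAD and YAP sites but less so at Myc sites. It was present at 86.0% (85.4 to 86.5) of TEAD peaks in both marks, 36.2% (35.4 to 37.1) of those in H3K27ac only and 4.69% (4.13 to 5.32) of those in neither. At YAP peaks the shares were 82.9% (79.5 to 85.9), 31.6% (27.7 to 35.9) and 2.72% (1.39 to 5.28). At Myc peaks they were 96.6% (96.2 to 96.9), 68.3% (66.6 to 69.9) and 66.0% (60.6 to 70.9), so the 326 Myc peaks outside both marks mostly still had polymerase. Of these 326, 82 (25.2%, 20.8 to 30.1) had a TEAD peak, against 74.7% (73.8 to 75.5) of the Myc peaks in both marks. With only the regions scored at or above the median of each mark, the contrast in polymerase was smaller. In neither mark it was then at 53.9% (51.3 to 56.5) of Myc peaks and 14.3% (13.7 to 15.0) of TEAD peaks. Myc peaks outside the marks were also weaker, with a median fold enrichment, the ratio of tags at the summit to those of the control, of 5.24, against 6.50 in both marks and 5.47 in H3K27ac only.

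**Figure D1:**
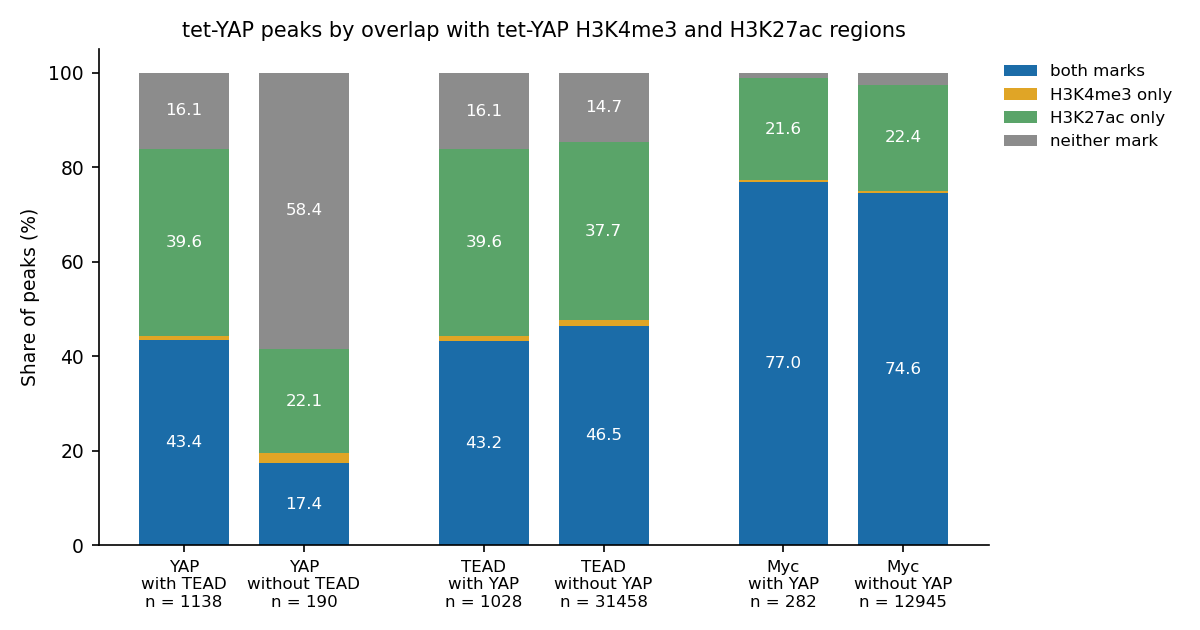
Stacked bars of the share of peaks (%) in each class of tet-YAP marks, for YAP with and without TEAD, TEAD with and without YAP, and Myc with and without YAP. Both marks were found at 43.2% of TEAD peaks with YAP and 46.5% of those without, and YAP peaks without TEAD lay in neither mark in 58.4%, against 16.1% of those with TEAD.

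YAP was found at 1028 TEAD peaks, which is 3.16% of the list (2.98 to 3.36), and the reverse overlap was far larger, since 1138 of the 1328 YAP peaks (85.7%, 83.7 to 87.5) lay on a TEAD peak. Most of these TEAD peaks (924) held 1 YAP peak, 97 held 2 and 7 held 3. The count depends on the threshold and on the definition of a shared site. The q-value is the peak caller's p-value adjusted over the list, so a high −log10 q marks a surer peak. Among peaks with −log10 q of at least 10 in both lists the share was 0.754%, and where the TEAD summit itself had to lie inside the narrow YAP peak it was 1.94% (the summit rule). With every peak replaced by 500 bp around its summit it was 3.14%.

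Over the whole list, TEAD peaks with YAP lay somewhat less often in H3K4me3 than those without. H3K4me3 was present at 44.3% (41.3 to 47.3) of TEAD peaks with YAP and 47.6% (47.1 to 48.2) of those without, a difference of −3.36 percentage points (Newcombe interval −6.42 to −0.257). H3K27ac was present at 82.8% (80.4 to 85.0) of those with YAP and 84.2% (83.8 to 84.6) of those without, a difference of −1.39 points (−3.85 to 0.835). Neither mark was found at 16.1% (14.0 to 18.5) of those with YAP and 14.7% (14.3 to 15.1) of those without, a difference of 1.42 points (−0.739 to 3.83). The H3K4me3 difference was −7.24 points (−11.0 to −3.33) by the summit rule and −6.10 points (−8.79 to −3.24) with the higher scored mark regions. Among peaks with −log10 q of at least 10 it was −2.96 points (−10.3 to 4.58), an interval that includes 0. The intervals of the H3K27ac and neither-mark differences include 0, but by the summit rule that of neither mark was 2.89 points (0.0772 to 6.09). Read the other way, YAP was at 2.94% (2.69 to 3.23) of TEAD peaks in both marks, 3.32% (3.02 to 3.65) of those in H3K27ac only and 3.46% (2.98 to 4.01) of those in neither, all near the 3.16% of the whole list.

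For polymerase and Myc the intervals of the difference over the whole list included 0. RNA polymerase II was present at 53.8% (50.7 to 56.8) of TEAD peaks with YAP and 54.5% (54.0 to 55.1) of those without, a difference of −0.714 points (−3.82 to 2.36). Myc was at 32.0% (29.2 to 34.9) of those with YAP and 29.6% (29.1 to 30.1) of those without. The Myc difference was 2.43 points (−0.398 to 5.38), and it was −1.66 points where a summit had to lie inside the other peak. With 250 bp on each side of every summit it was 0.370 points (−2.33 to 3.23). In both marks Myc was at 56.3% (51.7 to 60.8) of TEAD peaks with YAP and 49.3% (48.4 to 50.1) of those without, and these intervals do not overlap. Those with YAP were also wider there, at a median of 960 bp against 571 bp, and stronger, at 16.0 against 6.28-fold. A wider peak has more room to overlap another, and the parts of width and strength in this difference were not tested. In H3K27ac only, 18.7% (15.2 to 22.7) of TEAD peaks with YAP and 16.8% (16.1 to 17.5) of those without had Myc. Where polymerase was present, its median fold enrichment was 11.7 at TEAD peaks with YAP and 12.6 at those without, and where Myc was present, that of Myc was 6.40 and 6.55.

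Distances along the chromosome were similar. The nearest other TEAD summit was at a median of 6024 bp from TEAD peaks with YAP (quartiles 1995 and 18623 bp) and 6277 bp from those without (1874 and 20984 bp). Another TEAD peak lay within 5000 bp of 46.0% of those with YAP and 45.4% of those without. For peaks in H3K27ac only, the nearest H3K4me3 region was at a median of 20957 bp with YAP and 20368 bp without. In neither mark it was nearer for those with YAP, at a median of 39534 bp (quartiles 17047 and 102169 bp), against 54100 bp without (21806 and 144609 bp), and the ranges overlapped widely.

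TEAD binding itself was stronger at the peaks with YAP. The median fold enrichment over the control was 14.1 at TEAD peaks with YAP (quartiles 9.03 and 21.6) and 6.16 at those without (5.10 and 8.22), a ratio of 2.28. The median pileup at the summit was 80.5 tags with YAP and 34 without, the median −log10 q 57.5 and 13.0, and the median width 782 and 514 bp. The distributions overlapped: 79.2% of the TEAD peaks with YAP lay above the upper quartile of those without, 96 (9.34%) lay below their median, and 1559 peaks without YAP exceeded the median of those with it. At or above 5-fold stood 97.3% of TEAD peaks with YAP and 77.9% of those without, and at or above 20-fold 29.8% and 1.37%. The ratio was 3.13 among peaks with −log10 q of at least 10, 2.61 by the summit rule and 2.27 with windows of equal width.

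**Figure D2:**
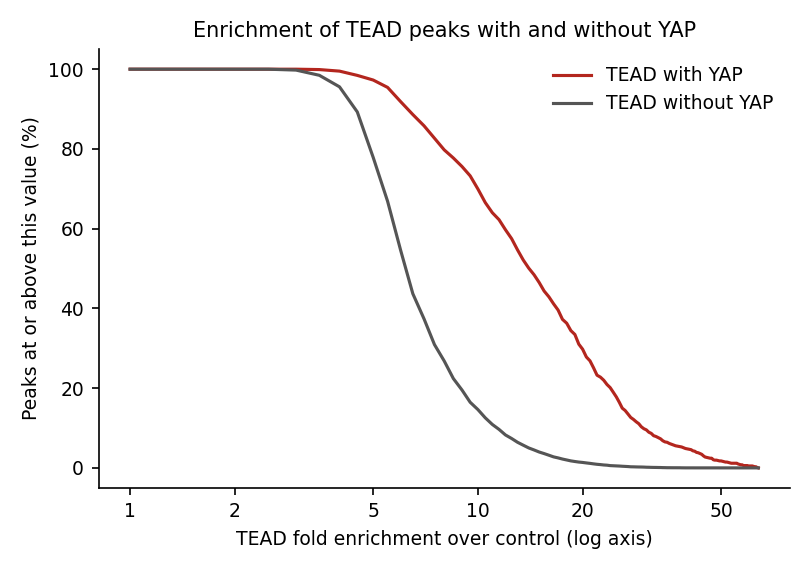
Share of TEAD peaks (%) at or above a given fold enrichment over the control (log axis), for the 1028 TEAD peaks with YAP and the 31458 without. At 10-fold the curve with YAP stands at 69.9% and that without at 14.6%.

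The difference in strength was present in every class of chromatin, and its size varied. In both marks the median fold enrichment was 16.0 with YAP and 6.28 without (444 and 14633 peaks, ratio 2.54), and in H3K27ac only 14.5 and 6.28 (407 and 11845 peaks, ratio 2.31). In neither mark it was 9.82 and 5.91 (166 and 4633 peaks, ratio 1.66). YAP thus lay at weaker TEAD peaks outside the marks than inside them. In H3K4me3 only, 11 peaks had YAP and 347 did not, with medians of 10.3 and 5.89.

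The TEAD list was then split into deciles by fold enrichment, with ties in the order of the list, and the share with YAP was read in each. From the lowest to the highest decile it was 0.462%, 0.339%, 0.554%, 0.739%, 1.14%, 1.08%, 1.69%, 2.12%, 4.59% and 18.9%, set against 3.16% over the whole list. The share stayed near or below 1% over the 5 lowest deciles and climbed steeply only in the last 2. The top decile, from a fold enrichment of 11.98 upward, held 615 of the 1028 TEAD peaks with YAP (59.8%, 56.8 to 62.8), and the 5 lowest deciles together held 105 (10.2%, 8.51 to 12.2). Among the 324 strongest TEAD peaks, with a fold enrichment of at least 25.3, YAP was at 53.7% (48.3 to 59.1). Most strong TEAD peaks still lacked YAP, as 2633 peaks of the top decile had no YAP peak. In the top decile the share was 5.94% among peaks with −log10 q of at least 10, which leaves 193 YAP peaks, and 13.0% by the summit rule. It was 19.2% when pileup replaced fold enrichment as the measure of strength, a choice made after the data were seen.

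Within the top decile the shares differed little between classes of chromatin. The share with YAP was 19.1% (17.2 to 21.1) in both marks, 18.4% (16.4 to 20.5) in H3K27ac only and 20.4% (16.4 to 25.3) in neither, all above the 3.16% of the list. Among the 324 strongest peaks the order was another, with YAP at 61.4% (53.9 to 68.5) in both marks, 45.3% (37.3 to 53.6) in H3K27ac only and 9 of 17 in neither. In the ninth decile the shares by class, in that order, were 3.94% (3.10 to 5.02), 4.22% (3.24 to 5.48) and 8.15% (5.77 to 11.4). Just below the top decile YAP was thus more common outside the marks. Over the 5 lowest deciles the shares were 0.381% (0.264 to 0.550), 0.714% (0.531 to 0.960) and 1.16% (0.821 to 1.65), in the same order.

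In the eighth and ninth deciles YAP was less common where Myc was present. In the ninth decile 2.62% (1.86 to 3.68) of TEAD peaks with Myc and 5.77% (4.84 to 6.87) of those without Myc carried YAP, a difference of −3.15 points (−4.49 to −1.74). In the eighth it was 0.894% (0.486 to 1.64) with Myc and 2.77% (2.16 to 3.56) without. In the top decile it was 18.0% (16.1 to 20.1) with Myc and 19.6% (17.9 to 21.5) without, a difference of −1.57 points (−4.26 to 1.16), and in both marks 19.4% (17.1 to 22.1) and 18.6% (15.6 to 21.9). Among the 324 strongest peaks YAP was at 55.9% (48.4 to 63.1) with Myc and 51.3% (43.5 to 59.1) without, and in both marks at 65.8% (56.7 to 73.9) and 51.9% (38.7 to 64.9), all with overlapping intervals. The gap in the ninth decile was there within 1 class of chromatin as well: in both marks, 2.93% (2.02 to 4.24) of the peaks with Myc and 5.32% (3.87 to 7.27) of those without had YAP. It was −0.466 points (−0.995 to 0.416) among peaks with −log10 q of at least 10 in all 3 lists, where few YAP peaks remain.

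**Figure D3:**
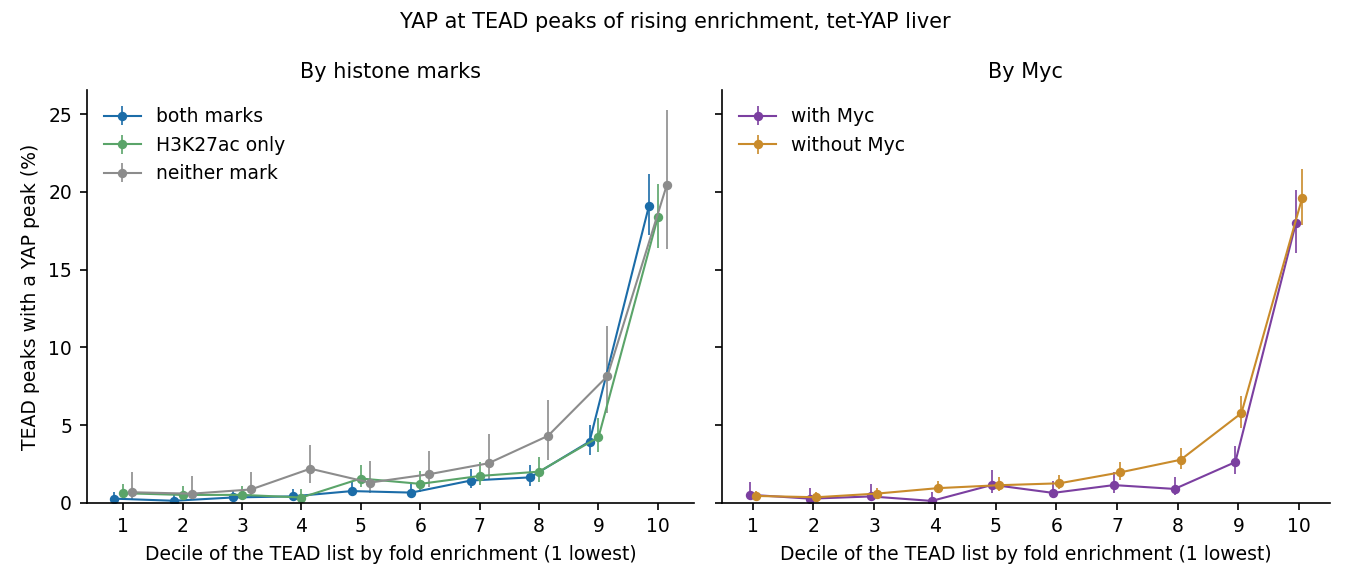
Share of TEAD peaks with a YAP peak (%) in each decile of the TEAD list by fold enrichment, from lowest to highest, split by histone marks (left) and by Myc (right). Points are shares and bars Wilson 95% intervals, H3K4me3 only is left out as it holds 358 peaks, and all lines end between 18.0% and 20.4%.

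TEAD peaks with YAP were therefore also compared with TEAD peaks without YAP at equal strength, by weighting those without YAP over 100 slices of fold enrichment. Among TEAD peaks without YAP, this weighting raised the share with each sign of active chromatin other than H3K4me3, and all of these shares then exceeded those at TEAD peaks with YAP. At equal strength Myc was at 32.0% of TEAD peaks with YAP and 40.3% of those without, RNA polymerase II at 53.8% and 62.0%, and H3K27ac at 82.8% and 88.8%. Neither mark was found at 16.1% and 10.4%. These differences of −8.34, −8.16, −5.99 and 5.73 points have no interval of their own. When slices of pileup were used in place of fold enrichment, they were −8.96, −9.82, −6.61 and 6.35 points. Among peaks with −log10 q of at least 10 the Myc difference at equal strength was −3.43 points. H3K4me3 differed by −3.27 points at equal strength, close to the −3.36 points before. All these values pool the slices and can hide differences between them. Strength was not fully equal in the top slice, which spans 25.3 to 63.8-fold and holds 174 TEAD peaks with YAP. At or above 40-fold stood 4.77% of all TEAD peaks with YAP and 0.00954% of those without. In the top decile, with 59.8% of the TEAD peaks with YAP, YAP was at 18.0% with Myc and 19.6% without. In the ninth decile YAP was at 2.62% and 5.77%. Likewise, YAP was at 20.4% of TEAD peaks in neither mark and 19.1% in both marks in the top decile, and at 8.15% and 3.94% in the ninth.

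Within regions with 2 to 4 TEAD summits, YAP was mostly at the strongest TEAD peak. H3K27ac regions with at least 1 TEAD peak carrying YAP and exactly 2 TEAD summits numbered 165, and YAP was at the stronger TEAD peak in 146 of them (88.5%, 82.7 to 92.5) and at the weaker in 24 (14.5%, 9.97 to 20.7). The median fold enrichment was 15.6 at the stronger peaks and 6.28 at the weaker. With 3 TEAD summits, in 102 regions, YAP was at 78.4% (69.5 to 85.3) of the strongest, 18.6% (12.3 to 27.3) of the next and 5.88% (2.72 to 12.2) of the weakest. H3K4me3 regions were ranked in the same way. In the 110 H3K4me3 regions with 2 TEAD summits, YAP was at the stronger in 96 (87.3%, 79.8 to 92.3) and at the weaker in 17 (15.5%, 9.88 to 23.4), and in the 64 with 3 it was at 89.1%, 14.1% and 4.69% by rank. In regions with 5 TEAD summits the first rank had YAP in 39 of 53 H3K27ac regions (73.6%, 60.4 to 83.6) and in 8 of 15 H3K4me3 regions. With 6 summits it was at 16 of 28 first-ranked peaks in H3K27ac (57.1%, 39.1 to 73.5) and 11 of 28 of the next (39.3%, 23.6 to 57.6), and in H3K4me3 at 7 and 2 of 8. As only regions with YAP at a TEAD peak were taken, these shares describe its rank within a region and not how often a region has it.

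**Figure D4:**
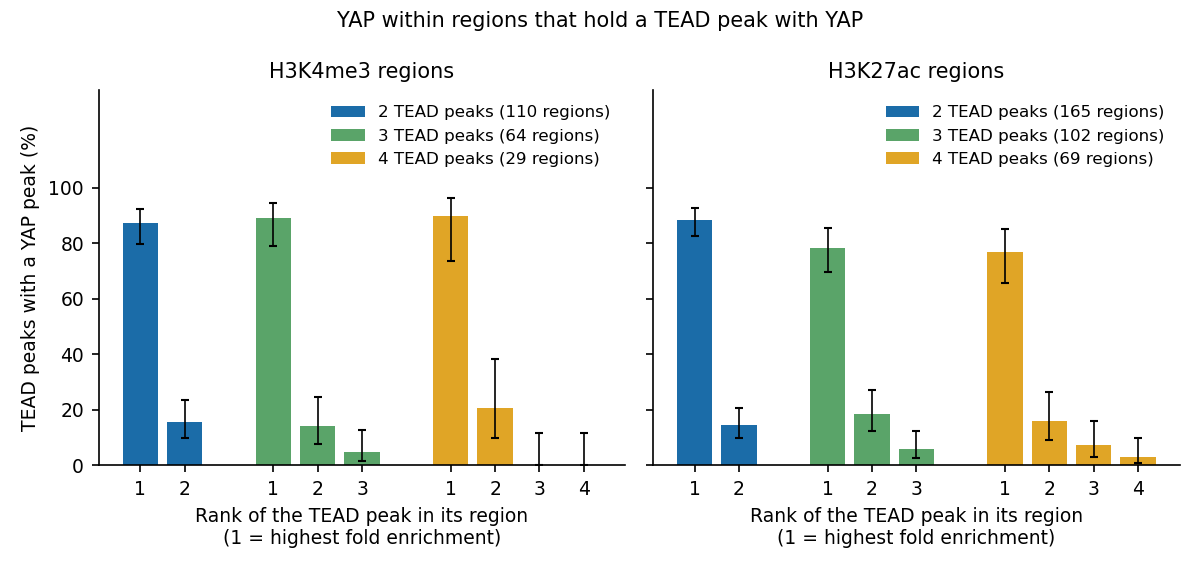
Share of TEAD peaks with a YAP peak (%) by their rank within a region, for H3K4me3 (left) and H3K27ac (right) regions that hold 2, 3 or 4 TEAD summits and at least 1 TEAD peak with YAP. Bars are shares with Wilson 95% intervals, and in every set the first rank stands at 76.8% or more and the next at 20.7% or less.

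Counted by region, YAP was present at 461 H3K4me3 regions, 2.88% of all, and at 842 H3K27ac regions, 4.14% of all. Of all H3K4me3 and all H3K27ac regions, TEAD was present at 63.7% and 70.1%, and Myc at 47.4% and 41.6%. YAP hardly occurred in a region without TEAD: 19 of the 6076 H3K27ac regions without a TEAD peak had YAP (0.313%, 0.200 to 0.488). With 1 TEAD peak the share was 3.10% (2.76 to 3.49), with 2 it was 6.02% (5.22 to 6.94), with 3 it was 9.22% (7.67 to 11.04) and with 6 or more 23.0% (19.9 to 26.5), set against 4.14%. Width moved with this count: the median was 5933 bp for regions with 1 TEAD peak and 48290 bp for those with 6 or more, and the share with YAP was 1.01% in the narrowest quintile of H3K27ac regions and 10.8% in the widest. A region with more TEAD peaks has more sites at which YAP can be counted. The rise is thus no measure of the share with YAP per TEAD peak. The parts of count and width in it were not tested.

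By combination, 498 H3K27ac regions held YAP, TEAD and Myc, 325 held YAP and TEAD without Myc, 19 held YAP alone and none held YAP and Myc without TEAD. Factors of 1 region need not share a site, as 303 YAP peaks of the whole list overlapped both TEAD and Myc. A wider region also has more room for each factor. Regions with all 3 factors were wide and high in acetylation, with a median width of 21570 bp and a median score of 16484. Regions with YAP and TEAD but no Myc had medians of 12175 bp and 4885, and those with TEAD and Myc but no YAP 9670 bp and 11286. The score was deposited without a stated scale and ranks regions within the list only. RNA polymerase II was at 96.0% of the regions with all 3, 54.2% of those with YAP and TEAD and 92.4% of those with TEAD and Myc. H3K4me3 regions with H3K27ac differed from those without: TEAD was at 73.2% (72.4 to 73.9) and 13.3% (12.03 to 14.7), Myc at 55.9% (55.1 to 56.8) and 2.08% (1.60 to 2.72), and YAP at 3.32% (3.03 to 3.63) and 0.551% (0.328 to 0.922).

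YAP summits lay close to TEAD summits. At overlapping peaks the median distance from a YAP summit to the nearest TEAD summit was 54 bp (quartiles 24.3 and 110 bp), and 72.9% were within 100 bp. Myc summits were less tightly placed, at a median of 136 bp from TEAD (quartiles 53 and 296 bp), with 40.8% within 100 bp. From YAP to Myc the median was 181 bp (quartiles 87.3 and 273 bp), with 28.8% within 100 bp. In the 303 YAP peaks that overlapped both, the YAP summit was nearer to TEAD in 223 (73.6%, 68.4 to 78.2) and nearer to Myc in 79 (26.1%, 21.5 to 31.3). YAP peaks were narrower than those of the other lists, and the part of width in these distances was not tested.

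**Figure D5:**
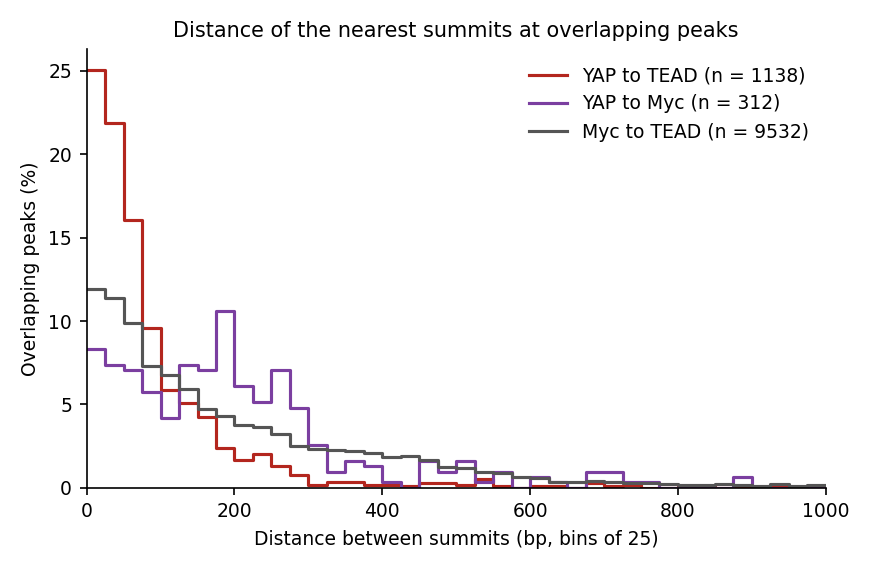
Distance between nearest summits at overlapping peaks (bp, in bins of 25) against the share of peaks (%), for YAP to TEAD (1138 peaks), YAP to Myc (312) and Myc to TEAD (9532). YAP to TEAD is the steepest, with 25.04% of the pairs in the first bin, against 11.9% of Myc to TEAD.

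The fold enrichment of the YAP peak itself followed that of TEAD only weakly, but surer YAP peaks lay on stronger TEAD peaks. Over the 1138 YAP peaks on TEAD, Spearman's rho between both fold enrichments was 0.16, given as a description across peaks of 2 libraries. The 179 of them with −log10 q of at least 10 lay on TEAD peaks with a median fold enrichment of 22.6 (quartiles 14.1 and 33.9), and the 959 others on TEAD peaks with a median of 13.2 (8.85 and 20.2). The median YAP fold enrichment was 14.6 in both marks, in H3K27ac only and in neither. Most YAP values lay in a narrow range: over the list the quartiles of fold enrichment were 12 and 17.2. The median YAP pileup was 12 tags (quartiles 10 and 14). This leaves little room for a difference between classes or a correlation, so equal medians do not show equal YAP binding. Of the 193 YAP peaks with −log10 q of at least 10, 36.3% (29.8 to 43.3) overlapped Myc, against 21.3% (19.04 to 23.8) of the 1135 others. For TEAD these shares were 92.7% (88.2 to 95.6) and 84.5% (82.3 to 86.5). With Myc peaks also held to −log10 q of at least 10, 23.3% (17.9 to 29.8) of the 193 overlapped Myc, and the 1135 others were not counted in this way. The part of TEAD strength in the Myc difference was not tested.

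The YAP peaks on TEAD and the 190 without it lay in different chromatin. Neither mark was found at 16.1% (14.1 to 18.3) of YAP peaks with TEAD and 58.4% (51.3 to 65.2) of those without, both marks at 43.4% (40.6 to 46.3) and 17.4% (12.6 to 23.4). RNA polymerase II was at 50.8% (47.9 to 53.7) of those with TEAD and 13.2% (9.07 to 18.7) of those without, and Myc at 26.6% (24.1 to 29.3) and 4.74% (2.51 to 8.76). Both sets had a median fold enrichment of 14.6 and a median pileup of 12 tags. Their widths differed: the median was 107 bp with TEAD and 62.5 bp without, and 9.58% (8.002 to 11.4) of those with TEAD and 30% (23.9 to 36.9) of those without had the smallest width of the list, 56 bp. A pileup of at least 50 tags was found at 3 YAP peaks with TEAD and 7 without. These 7 lay on 2 chromosomes with fold enrichments of only 2.07 to 4.09, that is over a high control, and without them 57.9% of the other 183 were in neither mark. The nearest TEAD summit was at a median of 14488 bp from the YAP peaks without TEAD, and for 22 of them within 1000 bp.

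YAP was also rare at Myc peaks. It was found at 282 of them, 2.13% of the list, or 0.576% among peaks with −log10 q of at least 10 and 0.575% by the summit rule. Of these 282, 277 (98.2%, 95.9 to 99.2) also had TEAD, against 71.5% (70.7 to 72.3) of the Myc peaks without YAP. Among Myc peaks with TEAD the share with YAP was 2.91% (2.59 to 3.26), and among those without TEAD 0.135% (0.0578 to 0.316). Both marks were found at 77.0% (71.7 to 81.5) of Myc peaks with YAP and 74.6% (73.8 to 75.3) of those without. Unlike TEAD, Myc was only slightly stronger with YAP, with a median fold enrichment of 6.56 with YAP and 6.13 without. Myc was also slightly stronger with TEAD, at 6.34 with TEAD and 5.69 without.

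Single sites show the range. Positions are on mm9, and no gene is named, as no annotation of that build was used. The 3 strongest TEAD peaks with YAP in H3K4me3, by −log10 q, were chr16:13108912-13110225, chr17:71339225-71340923 and chr10:127930314-127931399. Their TEAD fold enrichments were 63.8, 63.4 and 63.2, and those of YAP 31.8, 26.99 and 50.4. All 3 also had Myc, RNA polymerase II and H3K27ac, and the YAP summits lay 30, 4 and 173 bp from TEAD. In H3K27ac only, the strongest were chr11:80631305-80632380, chr11:32504655-32505842 and chr2:50542447-50543564, with TEAD at 59.5, 57.8 and 47.8-fold and YAP at 16.5, 22.3 and 22.0-fold. Only the site at chr11:32504655-32505842 had Myc and polymerase as well. In neither mark they were chr7:54025422-54026883, chr4:47062758-47063755 and chr14:32277025-32278134, with TEAD at 34.1, 52.0 and 40.6-fold and YAP at 12.5, 21.0 and 18.6-fold. None of these 3 had Myc or polymerase, and the nearest H3K27ac region was 14294, 12494 and 23021 bp away.

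Strong TEAD sites lacked YAP in each class as well. In H3K4me3 they were chr6:37390543-37392787, chr3:88717503-88718463 and chr8:59029223-59031332, with TEAD at 49.1, 41.6 and 30.4-fold, all with polymerase and H3K27ac and the last 2 with Myc. In H3K27ac only they were chr5:144995057-144996090, chr14:73693255-73694049 and chr13:54771524-54772301, with TEAD at 38.7, 30.6 and 38.3-fold. In neither mark they were chr16:89346877-89347774, chr2:104681793-104682587 and chr5:123985299-123986184, with TEAD at 55.0, 27.2 and 31.6-fold and neither Myc nor polymerase. The closest YAP summit to any of these 9 was 40442 bp away, at chr14:73693255-73694049.

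The strongest YAP peaks without TEAD were chr11:3054555-3054825, chr9:65161199-65161261 and chr7:74885626-74885718. The first had a pileup of 70 tags but a fold enrichment of 4.09, no polymerase and neither mark. The others had pileups of 19 and 16 tags at 26.5 and 22.5-fold, and polymerase was present at both, with Myc at the site on chromosome 9. The strongest Myc peaks in neither mark were chr3:98111768-98117150, chr18:56297937-56298495 and chr9:72614679-72615099, at 11.2, 11.2 and 10.7-fold. The first was 5383 bp wide and carried polymerase at 52.5-fold, the next had no other factor, and the last had TEAD at 6.87-fold.

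The share of TEAD peaks with YAP was similar on all autosomes, between 2.48% on chromosome 8 and 4.05% on chromosome 10, with a median of 3.14%. Chromosome X held 4 YAP peaks and 270 TEAD peaks, of which 4 had YAP (1.48%, 0.58 to 3.75).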

How the data were processed

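The members and the lists used here were chosen with earlier results of these data known. Per the submitters' processing notes, the authors aligned reads to mm9 with BWA 0.6.2, handled them with SAMtools and called peaks with MACS2 2.0.9. The headers of the 4 narrow lists show 1 library each called against a control at a p-value cutoff of 1.00e-05, with up to 2 duplicates kept. The samples of the series hold 1 input, titled for liver without a genotype. Overlaps were not corrected for a control that the lists may share. Deposited values of a narrow peak are its pileup signal in tags, its fold enrichment as a ratio to the control, its −log10 p and its −log10 q. Regions of the 2 deposited broad lists carry a score with no stated scale. How many animals gave a library is not stated.

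A peak counted as shared when it overlapped the other list by 1 bp or more, and peaks of the first list were counted (Python 3.11.15, pandas 2.3.3, numpy 2.4.6). The code passed 10 of 10 checks on simulated data and gave the same 1028 TEAD peaks with YAP as bedtools 2.31.1. Wilson 95% intervals were used for shares and Newcombe intervals for their differences, both covering counting error only. No level of fold enrichment was compared between lists. matplotlib 3.10.9 drew the figures. Named peaks were the 3 that ranked first by −log10 q in each class, with ties broken by fold enrichment and position. The 17 files of other genotypes were not used. Nearest genes, the check of liver markers, motifs and sequences had been planned, and were not run because the reference at hand was not mm9.

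The alternatives were −log10 q of at least 10, the summit inside the other peak or region, 250 bp on each side of each summit, chromosomes 1 to 19, and mark regions scored at or above their median. The report calls the second of these the summit rule. Ranking TEAD peaks by pileup was added after the data were seen, as were the comparisons at equal TEAD strength, by rank within a region, by region width and by distance between summits.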

Additional observations from a re-analysis of the deposited data

How the results depend on the processing

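Each library stood alone, so no replicate could be left out, and no paired analysis was possible because each antibody had 1 library. A value was taken to have moved when it left the 95% interval of the reported one. No difference whose interval excluded 0 changed sign. Where the interval included 0, the Myc difference between TEAD peaks with and without YAP was −1.66 points by the summit rule, and with −log10 q of at least 10 those of RNA polymerase II, H3K27ac and neither mark were 4.26, 0.952 and −0.571 points.

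Windows of 250 bp on each side of the summit and chromosomes 1 to 19 alone moved none of the 12 main results. Other alternatives moved 19 of their values. With −log10 q of at least 10, neither mark was found at 16.1% of YAP, 14.1% of TEAD and 0.942% of Myc peaks, and H3K4me3 at 84.6% of Myc peaks. The share of TEAD peaks with YAP was 0.754%, or 5.94% in the top decile, and the ratio of median TEAD fold enrichments 3.13. With the summit rule, H3K4me3 was at 46.7% of TEAD peaks, and the share with YAP was 1.94%, or 13.0% in the top decile. The ratio was 2.61, and the difference between TEAD peaks with and without YAP was −7.24 points for H3K4me3. With the mark regions scored at or above their median, H3K4me3 was at 25.5% of YAP, 33.3% of TEAD and 60.4% of Myc peaks, and neither mark at 41.4%, 33.2% and 10.8%. The cause of these moves was not tested.

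The YAP list limits the rest. Only 193 of its 1328 peaks reached −log10 q of 10, and a TEAD peak counted as without YAP may hold YAP below the threshold. At equal TEAD strength the Myc difference was −8.34 points. It was −3.43 points with −log10 q of at least 10, which is a move by the width of the interval without matching, and between −11.1 and −8.34 points under the other alternatives.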
